A study of Mus musculus with 27 samples.

Results

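The E2F and DP transcription factors are described here as they responded to Tbx2 depletion in mouse melanoma cells. The 10 genes, E2f1 to E2f8 with Tfdp1 and Tfdp2, were chosen by family name, with earlier results of these data known, from the 23420 genes of the deposited tables. E2F proteins bind DNA at the promoters of genes needed for entry into S phase. E2F1 to E2F6 do so as heterodimers with a DP protein, encoded by Tfdp1 or Tfdp2, whereas E2F7 and E2F8 carry a pair of DNA-binding domains and need no DP partner. In quiescent and early G1 cells pocket proteins of the Rb family hold E2F1, E2F2 and E2F3 inactive, and phosphorylation by cyclin-dependent kinases releases them. E2F1, E2F2 and E2F3 are classed as activators, E2F4 and E2F5 as pocket protein-bound repressors, E2F6 as a Polycomb-associated repressor, and E2F7 and E2F8 as atypical repressors that are themselves made in late G1 and S phase.

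Parental B16 cells, a pigmented mouse melanoma line, were compared with clones 2 and 9, which were made from B16 by inserting a 3xHA tag with a neomycin resistance cassette at the end of the endogenous Tbx2 gene. Each clone is a single isolate, and by the study's blots clone 2 seemed to keep some untagged Tbx2. Each of the 3 lines was left untransfected, transfected with control siRNA, or transfected with Tbx2 siRNA, and transfected cells were taken after 48 h, with 3 libraries per condition and 27 in all. The deposited tables compare the 18 transfected libraries, Tbx2 siRNA against control siRNA within a line. The 9 untransfected libraries were not compared here, though the authors' fit may hold them. The control carries an siRNA too, so both arms went through the same transfection. RNA was read from 3′ ends.

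All values below are log2 fold changes of Tbx2 siRNA over control siRNA from the authors' fit, with its standard error (SE) and adjusted p, or quantities computed from them. Values of single libraries are not in these tables, and levels per sample, the depth of each library and the overlap of groups are therefore not shown. A gene is said to have risen or fallen where the adjusted p was under 0.05. Since RNA was taken from whole cultures, fewer cells in a given cell cycle phase and less RNA per cell cannot be told apart. The study describes the replicates as biological, and p-values cover the spread between them. Mean counts were the same for every line, so the spread used by the fit may be shared over the lines.

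Tbx2, a T-box transcription factor and the siRNA target, was at 12.8% of control in parental cells (95% interval 9.51% to 17.3%), 20.8% in clone 2 (15.6% to 27.9%) and 21.8% in clone 9 (log2 −2.20, SE 0.23). The melanocyte genes Mitf, Sox10, Pax3, Tyr, Tyrp1, Dct, Pmel and Mlana had mean normalized counts of 293.6 to 48045, whereas markers of leukocytes, endothelium, epithelium and fibroblasts were at 2.23 or less, with Lum at 0.

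For parental cells the supplement names siRNA number 06. Its guide strand is shown, with the seed (bases 2 to 8) in capitals, because a seed can also lower other transcripts.
Tbx2 siRNA 06 guide: aGAAAUUUgcaucaaaucc
The guide pairs with the Tbx2 3′ UTR at chr11:85841232-85841250 (GRCm38). Its seed site, AAATTTC, was in none of the longest annotated 3′ UTRs of the 10 E2F and DP genes, against 14.0% of 10516 tested genes with a 3′ UTR. The siRNA number for the clones was not found in the sources used here. The deposited comparisons carry the same siRNA label in every line, so agreement between lines may rest on a single siRNA.

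Promoter sequences from RefSeq (GRCm38.p6), 250 bases before to 50 after a start site, were matched for 8 of the 10 genes (not for E2f4 and E2f5). Both strands were searched for the E2F letters TTGGCGC or TTCGCGC, the E-box CACGTG and the T-box core AGGTGTGA, and matches of different motifs did not overlap in these windows. The E2F letters were found in 5 of the 8 genes, against 4.47% of 27025 genes with a promoter in the same table. The windows of the 8 genes held 39.3% to 80.7% G and C, and the share over all genes was not matched for this. The stretches below are shown because E2F genes are textbook targets of E2F proteins. Capitals mark the E2F letters on either strand.
E2f2, chr4:136172294-136172323, plus strand: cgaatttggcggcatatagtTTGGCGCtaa
E2f3, chr13:29986027-29986056, minus strand: gcgggaggaccTTGGCGCgtaaaccgtatc
E2f7, chr10:110745336-110745365, plus strand: cgcggcgccgaGCGCCAAgacagcgagggg
E2f8, chr7:48881689-48881718, minus strand: agaggcgcggaTTGGCGCgcggggccccgg
Tfdp1, chr8:13338697-13338726, plus strand: gggcgccgaagGCGCGAAaaggcgcgcagg
Of these genes E2f2, E2f7 and E2f8 fell in every line, E2f3 rose in parental cells and clone 9, and Tfdp1 passed in no line. The letters began 92 bases before the RefSeq start site in E2f7 and 111 bases before it in E2f8. They began at base 41 of the RefSeq transcript in E2f2 and base 19 in E2f3. The GENCODE start of E2f2, 136172394, lies after its printed match. E2f1, which fell in every line, had no match in this window, nor had E2f6 and Tfdp2. The GENCODE starts of E2f1 (154569892, minus strand) and Tfdp2 (96196275, plus strand) lay outside the windows searched. Other spellings of an E2F site were not searched, so a missing match does not show that a site is absent. The E-box was found in 2 of the 8 genes, E2f3 and Tfdp1, against 8.09% of genes, and AGGTGTGA in E2f2 alone, 128 bases before its second annotated start, against 1.48% of genes. The latter 2 matches in E2f2 and E2f3, in capitals, show how these motifs sit apart from the E2F letters.
E2f2, second start, AGGTGTGA, chr4:136180643-136180672, plus strand: cagtagccaatAGGTGTGAgatttagggtg
E2f3, other start, CACGTG, chr13:29984397-29984426, minus strand: gacgtttcgcaCACGTGcgcggaggacgcg
These matches are descriptions of letters and not of binding.

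Some E2F genes fell, fewer rose, and the rest did not pass. E2f1, E2f2, E2f7 and E2f8 fell in all 3 lines, E2f5 rose in all 3, and E2f3 rose in parental cells and clone 9. E2f4, E2f6, Tfdp1 and Tfdp2 passed the test in no line. In parental cells 4 of 10 genes fell and 2 rose, where 18.0% of all 11621 tested genes fell and 18.5% rose. In clone 2 the counts were 4 down and 1 up, beside 14.2% and 15.0% of 12023 tested genes. In clone 9 they were 4 down and 2 up, beside 14.7% and 13.4%. The rises were thus near the share of all genes in each line. The share of all genes that fell or rose in all 3 lines was not computed. Counts over all lines therefore have no such share beside them. All 10 genes had an adjusted p in every table, and 9 of them had a mean normalized count of 50 or more, Tfdp1 being the exception. In parental cells the median of the 10 log2 fold changes was 0.08, beside 0.02 for all tested genes. It was −0.39 in clone 2 and −0.43 in clone 9, beside 0.03 in each for all tested genes.

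**Figure D1:**
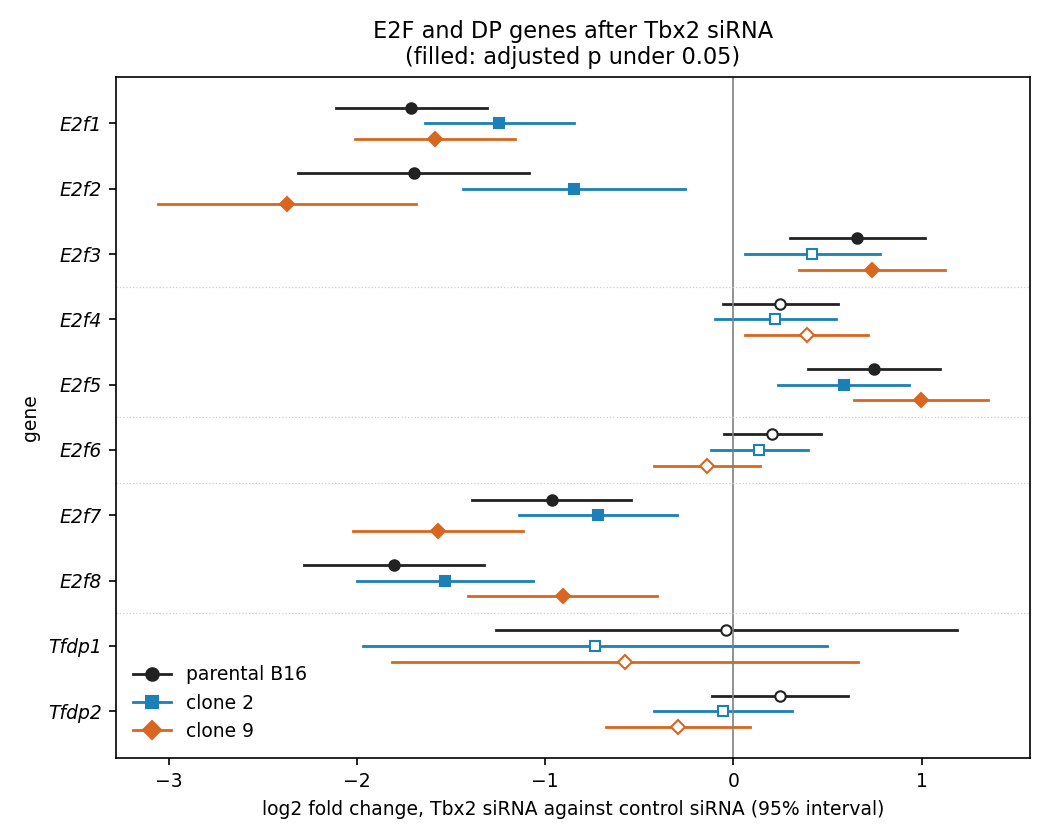
Log2 fold change of each E2F and DP gene, Tbx2 siRNA against control siRNA, with its 95% interval, in parental B16 (circles), clone 2 (squares) and clone 9 (diamonds). Filled symbols have an adjusted p under 0.05: E2f1, E2f2, E2f7 and E2f8 lie left of 0 and E2f5 right of 0 in all 3 lines.

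Among the activators, E2f1, the best known of the family and a driver of S-phase genes, was at 30.6% of its control level in parental cells (95% interval 23.1% to 40.3%). Its log2 fold change there was −1.71 (SE 0.20, adjusted p = 3.86e-15). It was −1.24 in clone 2 (SE 0.20, adjusted p = 2.67e-08) and −1.59 in clone 9 (SE 0.22, adjusted p = 1.66e-11). The 3 intervals of E2f1 overlapped, and its range over the lines was 0.47. E2f1 lies on chromosome 2 (154559407 to 154569892, minus strand, GRCm38) and had a mean normalized count of 363.2 over the libraries.

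E2f2, an activator that also restrains proliferation in some blood cells, fell in every line, with estimates that spread more widely than those of any other member. It was at 30.8% of control in parental cells (log2 −1.70, SE 0.31, adjusted p = 7.29e-07). In clone 2 it was at 55.6% (log2 −0.85, SE 0.30, adjusted p = 0.0211). In clone 9 it was at 19.3% (log2 −2.37, SE 0.35, adjusted p = 4.93e-10). Its mean normalized count was 81.5, and its standard errors were larger than those of every other E2F gene in each line. E2f2 lies on chromosome 4 (136172394 to 136196057, plus strand).

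E2f3, whose locus makes the E2F3a and E2F3b proteins from separate starts, went the other way. It was at 1.58 times its control level in parental cells (log2 0.66, SE 0.18, adjusted p = 0.00164) and at 1.67 times in clone 9 (log2 0.74, SE 0.20, adjusted p = 0.00154). In clone 2 the estimate was 1.34 times (log2 0.42, SE 0.18), which did not pass (adjusted p = 0.0682). The intervals of E2f1 and E2f3 did not overlap in any line. Counts from 3′ ends pool the transcripts of a gene, so the E2F3a and E2F3b forms, both on chromosome 13 (29906575 to 29986063, minus strand), were not separated.

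E2f5, a repressor that works with the pocket protein p130, rose in every line, the lone family member to do so. It was at 168% of control in parental cells (95% interval 132% to 214%, log2 0.75, SE 0.18, adjusted p = 0.000178). It was at 150.2% in clone 2 (log2 0.59, SE 0.18, adjusted p = 0.00542) and at 199.7% in clone 9 (log2 0.998, SE 0.18, adjusted p = 7.63e-07). The last 26 bases of E2f5 (chromosome 3, 14578641 to 14606309, plus strand) overlap the 3′ end of 1810022K09Rik on the opposite strand. The sources used here do not say whether counting used strand, so reads in that overlap cannot be told apart. The log2 fold change of 1810022K09Rik was −0.25 (SE 0.12) in parental cells, −0.21 (SE 0.12) in clone 2 and −0.45 (SE 0.13) in clone 9, of which the last passed, opposite in sign to E2f5.

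E2f4, which carries most of the E2F activity of resting cells as part of the DREAM repressor complex, was above control in each line without passing. Its log2 fold change was 0.25 in parental cells (SE 0.16, adjusted p = 0.210), 0.22 in clone 2 (SE 0.16, adjusted p = 0.325) and 0.39 in clone 9 (SE 0.17, adjusted p = 0.0637). Its 95% interval in parental cells, −0.06 to 0.56, lay wholly above that of E2f1. Its mean normalized count was 117.1.

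E2f6, which lacks the transactivation and pocket protein-binding parts and sits in Polycomb complexes, had small estimates of mixed sign. They were 0.21 in parental cells (95% interval −0.05 to 0.47), 0.14 in clone 2 (−0.12 to 0.40) and −0.14 in clone 9 (−0.42 to 0.14). Changes of the size seen for E2f1 lay far outside all 3 intervals. With a mean normalized count of 268.0 and standard errors of 0.13 to 0.14, E2f6 was measured more precisely than any other member in every line.

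Both atypical E2Fs fell in every line. E2f7 was at 51.2% of control in parental cells (log2 −0.96, SE 0.22, adjusted p = 5.62e-05). It was at 60.8% in clone 2 (log2 −0.72, SE 0.22, adjusted p = 0.00484) and at 33.7% in clone 9 (log2 −1.57, SE 0.23, adjusted p = 4.12e-10). E2f8 was at 28.7% in parental cells (log2 −1.80, SE 0.24, adjusted p = 5.45e-12). It was at 34.5% in clone 2 (log2 −1.53, SE 0.24, adjusted p = 5.26e-09) and at 53.4% in clone 9 (log2 −0.91, SE 0.26, adjusted p = 0.00264). E2f8 thus had the lower estimate of this pair in parental cells and clone 2, and E2f7 in clone 9. The difference between E2f7 and E2f8 within a line was not tested. E2f7 (chromosome 10, 110745439 to 110787384, plus strand) shares 86 exonic bases with the antisense gene 1700020G17Rik, and E2f8 (chromosome 7, 48866429 to 48881596, minus strand) shares 610 with the antisense Gm2788, so the same limit on strand holds.

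Neither DP gene passed in any line. Tfdp2, which encodes DP2, had log2 fold changes of 0.25 in parental cells (SE 0.18, adjusted p = 0.297), −0.06 in clone 2 (SE 0.19, adjusted p = 0.860) and −0.30 in clone 9 (SE 0.19, adjusted p = 0.272). Tfdp1, which encodes DP1, had a mean normalized count of 6.57, and its standard errors of 0.62 to 0.63 were the largest of the family. Its 95% interval in parental cells ran from −1.26 to 1.19, in clone 2 from −1.97 to 0.50 and in clone 9 from −1.81 to 0.66. A fall of Tfdp1 as large as that of E2f7 lay within its interval in each line, so such a fall could have been missed at this count.

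Set in the distribution of all tested genes, the members that fell lay in its lower tail. In parental cells 1.15% of tested genes had a lower log2 fold change than E2f8, 1.39% than E2f1 and 1.44% than E2f2. The 3 genes differed among themselves by less than 1 SE. E2f7 stood higher, with 7.50% of genes below it. In clone 2 the shares were 1.32% for E2f8, 2.74% for E2f1, 7.14% for E2f2 and 9.88% for E2f7. In clone 9 they were 0.424% for E2f2, 2.26% for E2f1, 2.34% for E2f7 and 7.95% for E2f8. The members that rose were less extreme. For parental cells, clone 2 and clone 9, the shares of tested genes above E2f5 were 13.0%, 16.6% and 7.69%, and those above E2f3 were 15.6%, 23.8% and 12.7%.

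**Figure D2:**
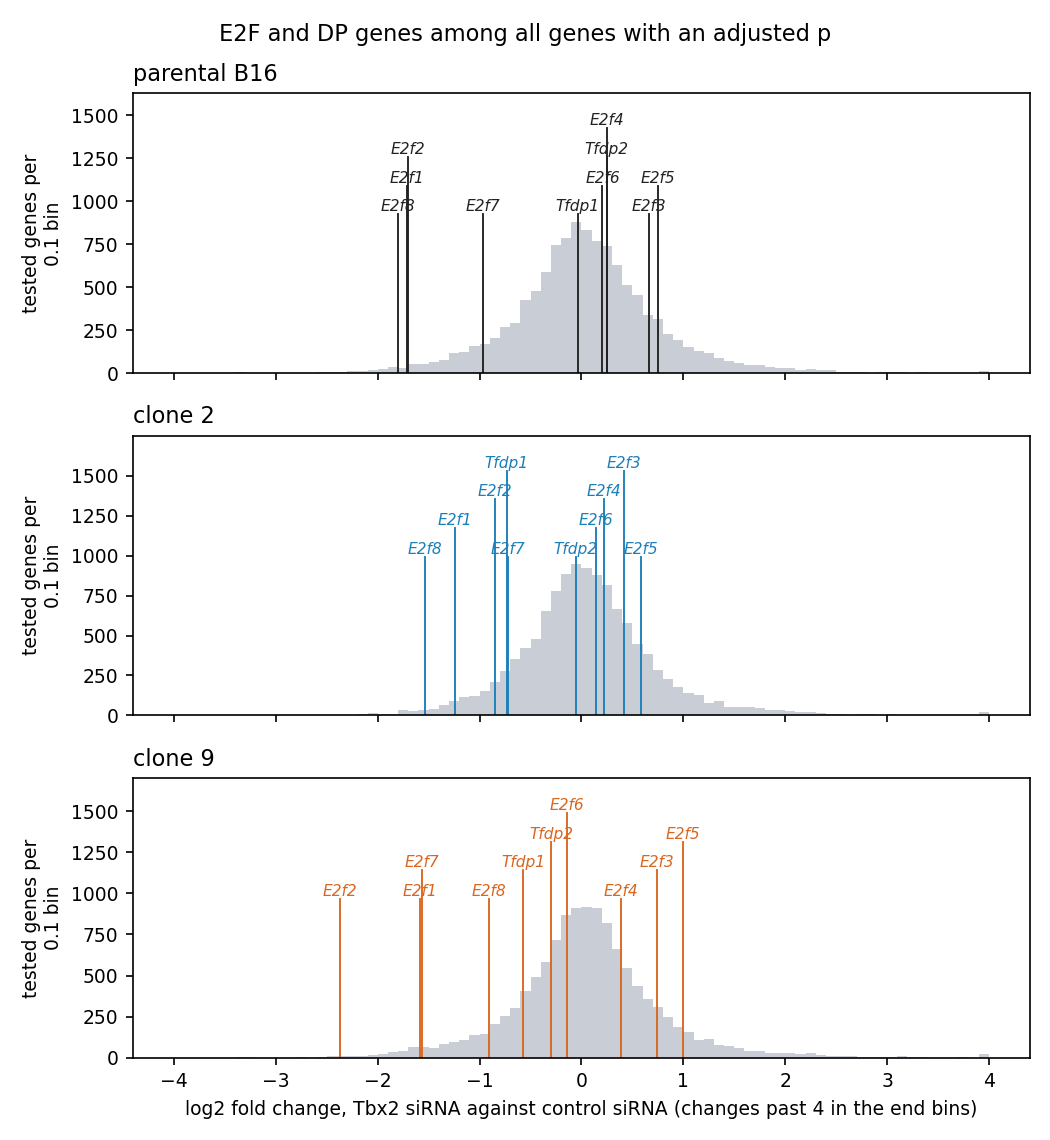
Number of tested genes per 0.1 bin of log2 fold change (grey bars) in parental B16, clone 2 and clone 9, with a line at the value of each E2F and DP gene (the height of a line only spaces the names). E2f8, E2f1 and E2f2 stand in the lower tail of parental cells with 1.15% to 1.44% of genes below them, while E2f4, E2f6 and Tfdp2 stand nearer to the middle there.

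The lines were then compared with each other by a z-test on the difference of log2 fold changes, adjusted over all genes, which gave 30 comparisons of members. No member passed in any pair. By the same test 0.0% of 11619 genes passed between clone 2 and parental cells, 0.0% between clone 9 and parental cells, and 0.00832% of 12021 genes between the clones. At an unadjusted p under 0.05, 0 members stood out between clone 2 and parental cells (3.54% of genes), 2 between clone 9 and parental cells (3.76%) and 2 between the clones (6.6%). The standard errors of these differences ranged widely, and a difference that did not pass is not shown to be absent.

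The difference with the smallest p among the members was that of E2f2 between the clones. Its estimate in clone 9 minus that in clone 2 was −1.53 (SE 0.46, 95% interval −2.43 to −0.62, adjusted p = 0.265). For E2f7 the same difference was −0.85 (SE 0.32, interval −1.47 to −0.23, adjusted p = 0.497). For E2f8 the estimate in clone 9 minus that in parental cells was 0.90, of the opposite sign (SE 0.35, interval 0.20 to 1.59, adjusted p = 0.999). The difference of Tfdp2 between clone 9 and parental cells was −0.54 (interval −1.07 to −0.02, adjusted p = 0.999). For E2f1 the differences were 0.47 in clone 2 (interval −0.09 to 1.03) and 0.13 in clone 9 (interval −0.46 to 0.71) against parental cells. For E2f5 they were −0.16 (−0.65 to 0.33) and 0.25 (−0.25 to 0.75). The difference of Tbx2 itself was 0.70 in clone 2 (interval 0.10 to 1.30) and 0.77 in clone 9 (0.15 to 1.39), neither passing after adjustment. A slope through 0 on the log2 fold changes of parental cells was 0.80 for clone 2 and 0.83 for clone 9, over 7696 genes. Multiplying the parental values by it gave differences for E2f1 of 0.12 in clone 2 and −0.16 in clone 9. In clone 9 that of E2f8 became 0.59, while those of E2f2 and E2f7 went from −0.67 to −0.96 and from −0.60 to −0.76.

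**Figure D3:**
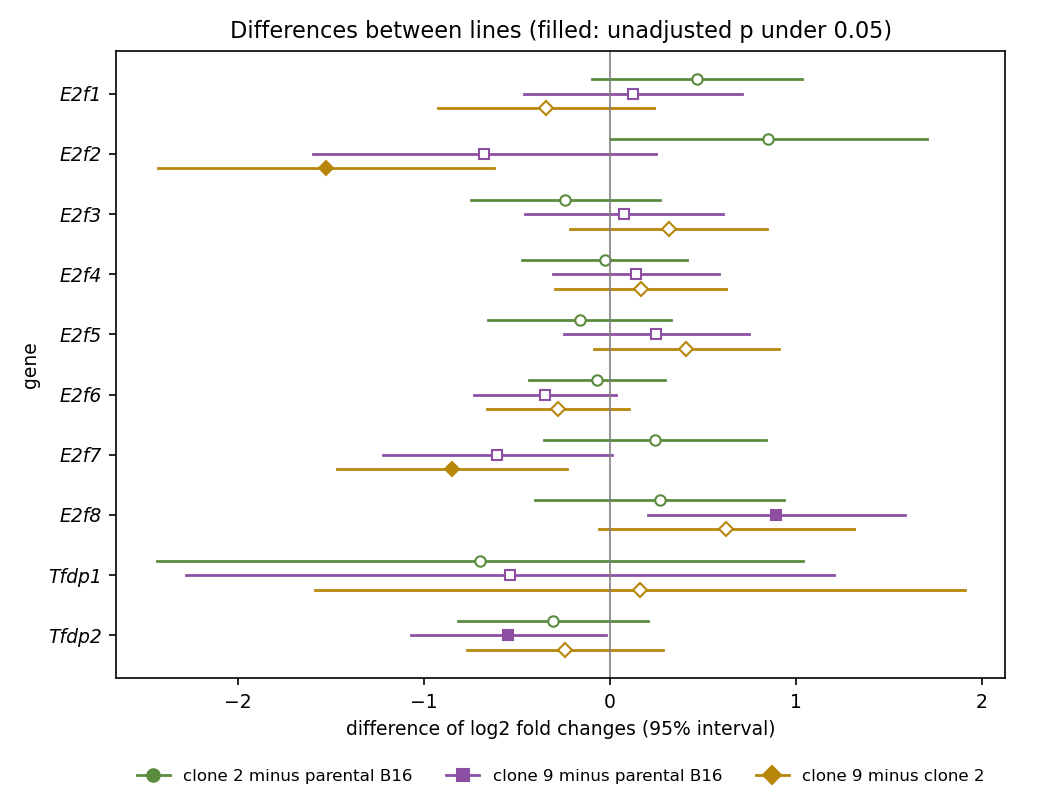
Differences of log2 fold changes between lines for each E2F and DP gene, with 95% intervals, for clone 2 minus parental B16 (circles), clone 9 minus parental B16 (squares) and clone 9 minus clone 2 (diamonds). Filled symbols have an unadjusted p under 0.05 (E2f2, E2f7, E2f8 and Tfdp2, in 1 pair each), and none passed after adjustment over all genes.

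Scaling bears on the smaller changes. The tables are scaled so that the median gene with a mean of 50 or more is near 0 (−0.01 in parental cells, 0.00 in both clones). The spike-in RNAs taken to be at the same amount in both mixes, 10 of them with a mean of 50 or more, had a median of −0.16 in parental cells and −0.08 in each clone. If they are set to 0, the share of calls that are rises goes from 50.7% to 69.3% in parental cells, from 51.5% to 63.5% in clone 2 and from 47.6% to 58.9% in clone 9. The falls of E2f1, E2f2, E2f7 and E2f8 and the rises of E2f5 stood under that scaling in every line. E2f4 then rose in parental cells (0.41, adjusted p = 0.0251) and clone 9 (0.47, adjusted p = 0.0217), E2f6 in parental cells (0.37, adjusted p = 0.0169) and E2f3 in clone 2 (0.50, adjusted p = 0.0232). Which spike-ins are equal was taken from general knowledge of the product.

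Genes that act on or through E2F were counted in fixed lists, chosen with earlier results of these data known. List medians may be read against the medians of all tested genes, 0.02 in parental cells and 0.03 in each clone, and list counts against the shares of all genes given above. The list of the Rb axis, 18 genes of the pocket proteins, the G1 cyclins and kinases that phosphorylate them and the inhibitors of those kinases, moved in both directions. Of 16 tested genes 4 rose and 7 fell in parental cells (median −0.35), 4 rose and 4 fell in clone 2 (median −0.38), and 3 rose and 6 fell in clone 9 (median −0.16). Cdkn1a, the inhibitor p21, had the largest rise named from this list, 1.61 in parental cells (SE 0.31, adjusted p = 1.62e-06) and 1.58 in clone 2 (SE 0.31, adjusted p = 3.77e-06), with 0.63 in clone 9 (SE 0.30, adjusted p = 0.108). Cdk2, the kinase that works with cyclin E, fell in every line (−1.14 in parental cells, −0.82 in clone 2, −0.86 in clone 9). Rbl1, the pocket protein p107 and itself a textbook E2F target, fell by nearly the same amount in each (−1.05, −1.07 and −1.03, in the same order of lines here and below). Cdkn2d, an inhibitor of Cdk4 and Cdk6, fell too (−1.37, −1.24 and −1.25). Rb1, the founding pocket protein, passed in no line, at −0.07 (SE 0.25), −0.59 (SE 0.25) and −0.50 (SE 0.26). Cdkn2a and Cdkn2b were at means of 0.57 and 0.21 and were not tested.

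Most of the targets fell. Of 26 G1/S targets, textbook E2F genes of replication and nucleotide synthesis, 23 fell in parental cells (median −1.21), 22 in clone 2 (median −0.97) and 25 in clone 9 (median −1.37), and 0 rose in any line, also at an unadjusted p under 0.05. The counts under the spike-in scaling were 23, 21 and 25. Mcm6, a subunit of the replicative helicase, had log2 fold changes of −2.20, −1.80 and −2.40. Cdc6, a licensing factor for replication origins, fell in every line (−1.92, −1.49 and −2.02). Uhrf1, which maintains DNA methylation after replication, did so as well (−1.81, −1.49 and −1.93). Brca1 was the target that passed in no line, at −0.17 (SE 0.21), −0.28 (SE 0.22) and 0.14 (SE 0.22). These targets and the E2F genes that fell are both made mostly around S phase, and the part of a shift in cell cycle phase in either was not tested.

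The genes of E2F turnover, ubiquitin ligase adaptors that target E2F proteins with the inhibitor Emi1 and cyclin A, fell as well. In parental cells 6 of 6 fell (median −1.05), in clone 2 5 (median −0.77) and in clone 9 6 (median −1.26). Ccnf encodes cyclin F, an adaptor for degradation of activator E2Fs, and was at −1.51, −1.19 and −1.63. Ccna2 encodes cyclin A, which with its kinase ends DNA binding by the activator E2Fs, and was at −1.43, −1.11 and −1.87. Fbxo5, which encodes Emi1, was at −1.18, −0.74 and −1.30. Skp2, an adaptor for E2F1 degradation, was at −0.92, −0.80 and −1.16. Under the spike-in scaling 5 fell in parental cells.

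The MuvB core forms DREAM with E2F4, a DP protein and a pocket protein. Listed with the core were B-Myb and FoxM1, factors that it also joins, outside DREAM. This list gave 4 falls of 7 in parental cells (median −0.54), 2 in clone 2 (median −0.27) and 2 in clone 9 (median −0.15). Foxm1, the activator of G2/M genes, fell in every line (−1.02, −0.53 and −1.41). So did Lin54, the DNA-binding subunit (−0.54, −0.45 and −0.64). Lin9, a core subunit, fell in parental cells (−0.58, adjusted p = 0.0173) but did not pass in clone 2 (−0.27) or clone 9 (−0.15). No difference between parental cells and a clone passed for any gene, Lin9 included. Setting the equal spike-ins to 0 left 1 fall in parental cells (Foxm1), 0 in clone 2 and 2 in clone 9.

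Few partners of E2F6 in its Polycomb complex passed the test, and in different directions. Of 12 subunits 4 fell in parental cells and 0 rose (median −0.08), 1 fell and 3 rose in clone 2 (median −0.08), and 1 fell and 0 rose in clone 9 (median −0.08). The falls in parental cells were those of the ring finger subunit Pcgf6 (−0.81, adjusted p = 0.00527), the MBT-domain subunit L3mbtl2 (−0.56, adjusted p = 0.0022), the heterochromatin protein Cbx3 (−0.45, adjusted p = 0.0287) and the deacetylase Hdac1 (−0.44, adjusted p = 0.0121). Under the spike-in scaling the median was 0.08 in parental cells, where 2 fell and 3 rose, so the direction of this list depended on scaling. Germline genes that E2F6 keeps silent in somatic cells, 8 in the list, had means of 0.81 or less, and 0 of them were tested.

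Coactivators that E2F1 recruits gave 2 rises of 7 in parental cells (median 0.02) and in clone 2 (median 0.00) and 0 in clone 9 (median 0.05). The genes were Ep300, the acetyltransferase p300, at 0.58 (adjusted p = 0.0022), 0.85 (adjusted p = 7.64e-06) and 0.27 (adjusted p = 0.256), and its paralog Crebbp at 0.55 (adjusted p = 0.0477), 0.58 (adjusted p = 0.0408) and 0.24 (adjusted p = 0.488). In clone 9, 0 of 7 passed in the DESeq2 fit, and 0 had an unadjusted p under 0.05.

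Among apoptosis genes described as targets of activator E2Fs, more rose than fell. Of 7 tested, 4 rose and 0 fell in parental cells (median 0.99), 4 rose and 0 fell in clone 2 (median 0.91), and 3 rose and 1 fell in clone 9 (median 0.67). Bbc3, the BH3-only protein Puma and also a textbook p53 target, rose by 3.01, 2.23 and 1.83. Apaf1, the apoptosome scaffold, rose by 0.99, 0.91 and 0.67. At an unadjusted p under 0.05, 1 gene was below control in parental cells and 1 in clone 2.

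**Figure D4:**
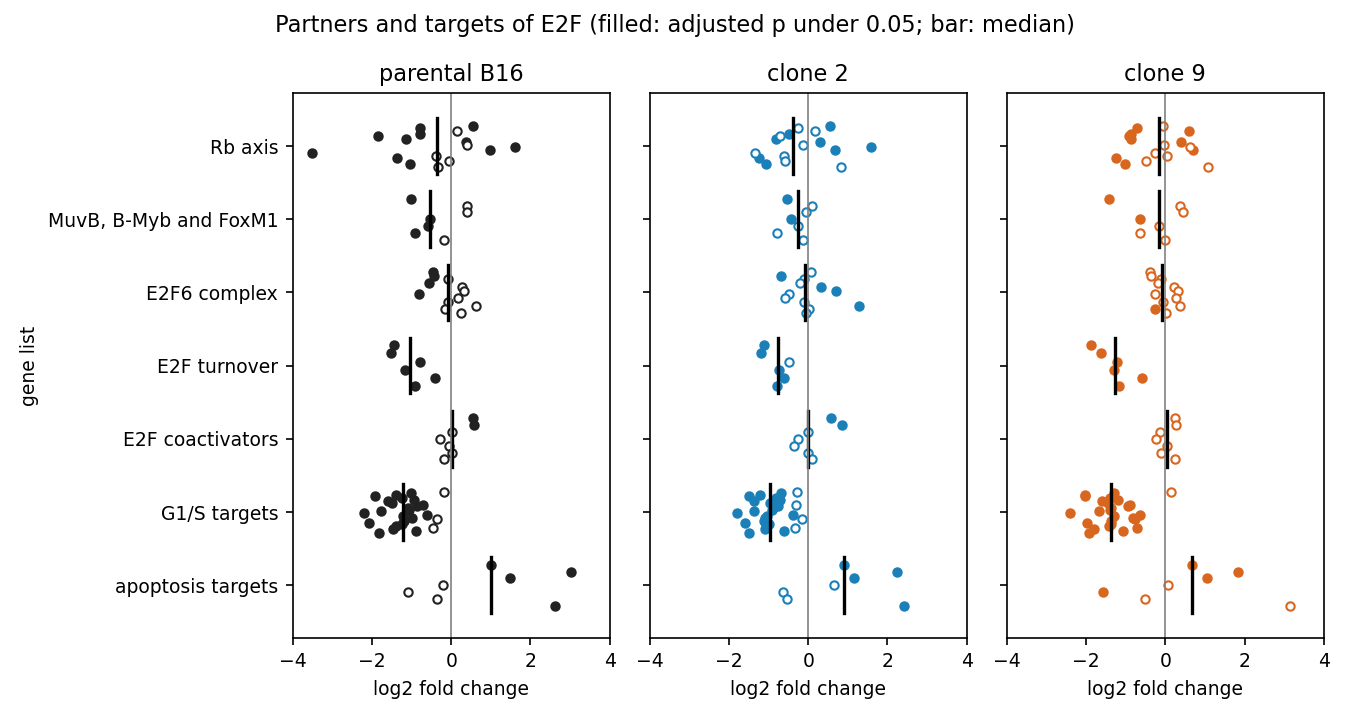
Log2 fold change of each tested gene of the 7 lists with tested genes, in parental B16, clone 2 and clone 9 (filled: adjusted p under 0.05, bars: list median). The G1/S targets lie left of 0, except Brca1 in clone 9, with medians of −1.21, −0.97 and −1.37, and the apoptosis targets have medians of 0.99, 0.91 and 0.67.

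The genes most like each member that changed alike in all lines were sought by the distance over the 3 log2 fold changes, among 7676 other genes with a mean of 50 or more. For E2f1 they were Ercc6l, a mitotic helicase (−1.69, −1.24 and −1.57 in parental cells, clone 2 and clone 9, distance 0.026), and Srsf2, a splicing factor (distance 0.118). For E2f7 they were Tpx2, a spindle assembly factor (−1.03, −0.70 and −1.49, distance 0.104), and Kif4, a chromosome-bound kinesin (distance 0.158). For E2f5 they were Jmjd1c, a Jumonji-domain protein (0.79, 0.59 and 1.03, distance 0.050), and Chmp1b, an ESCRT-III subunit (distance 0.064). E2f2 and E2f8 had no neighbour so near. The closest to E2f2 were Efcab11 (distance 0.312) and Kntc1, a kinetochore protein (distance 0.397), and the closest to E2f8 were Prdx3, a mitochondrial peroxiredoxin (distance 0.276), and Mtr, methionine synthase (distance 0.315). In parental cells the SE was 0.20 for E2f1, 0.31 for E2f2 and 0.24 for E2f8, similar to or larger than the smallest distance of each. Which genes are nearest, and how near, is therefore not settled. Likeness over 3 values is a description of the size of change in each line and of nothing else.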

How the data were processed

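RNA from 27 samples was sequenced from 3′ ends. By the methods and processing notes, the authors used FastQC 0.11.7 for read quality, STAR 2.6.1d for alignment to mm10, featureCounts (Subread 1.6.2) for gene counts, and DESeq2 1.28.1 for the fit. Each of the 3 deposited tables has 23512 entries, 92 of them spike-ins and 27 with names turned into dates. The deposited signal column holds the mean of normalized counts over libraries, made by the authors, the same in all tables for 23416 of 23416 uniquely named genes and so pooled over lines. Deposited log2 fold changes with their standard errors come from the authors' fit, the score is the authors' Wald statistic, and the p-value and adjusted p are deposited too. All are columns of the authors' own comparisons and, as the tables hold nothing per library, nothing was refitted and depth is unknown.

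Groups follow the labels for line and siRNA. Intervals are 95% normal intervals. Lines were compared by a two-sided z-test with Benjamini-Hochberg adjustment over all genes with an adjusted p in both tables. Lists are given by counts and medians with no set test. Members and lists were chosen with earlier results of these data known. Named are the 10 members, Tbx2, up to 4 called genes per list with the largest change in parental cells and a mean of 50 or more, and the 2 genes nearest each member called alike in all lines, and some list genes are not reported here by name. Rb1, Brca1, Cdkn2a, Cdkn2b and 1810022K09Rik were named outside that rule, after their values were seen. Gene positions and 3′ UTRs are from GENCODE M21, and the siRNA sequence from the study's reagent list. Python 3.11.15, numpy 2.4.6, pandas 2.3.3 and scipy 1.17.1 were used, and the tests were tested on simulated data. Alternatives were other thresholds, a test against a change of 0.5, other adjustments, centring, spike-in scaling, rescaling of a line and genes without a seed site.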

Additional observations from a re-analysis of the deposited data

How the results depend on the processing

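The directions of all called members stood under both alternatives that move the log2 fold changes within a line, the median of genes at 0 and the equal-ratio spike-ins at 0. The count of members called fell from 6 to 3 in parental cells, from 5 to 2 in clone 2 and from 6 to 3 in clone 9 when a change of 1 or more was also asked, and likewise to 3, 2 and 3 in a test against a change of 0.5, since smaller changes are then left out. E2f1, E2f2 and E2f8 remained in parental cells, E2f1 and E2f8 in clone 2, and E2f1, E2f2 and E2f7 in clone 9 under both. At an adjusted p under 0.01, E2f2 in clone 2 was lost. The other 27 recomputed counts of members called or differing between lines were within 1.5 times the first value, and 0 members differed between lines under any alternative (smallest adjusted p 0.162 with one line rescaled). The share of tested list genes called in parental cells fell at an adjusted p under 0.01 from 57.1% to 28.6% for MuvB, B-Myb and FoxM1, from 33.3% to 16.7% for the E2F6 complex and from 28.6% to 14.3% for the coactivators. Spike-in scaling of the lists, added after the data were seen, took that of MuvB, B-Myb and FoxM1 to 14.3%.

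No paired analysis was possible because the tables hold no value per library, and leaving out each replicate was not run for the same reason. The germline list, with 0 genes tested, gave no value under any alternative. Tfdp1 is limited by its low counts.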
